A study of Limodorum abortivum with 6 samples.

Results

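Membrane transporters and channels were examined in roots of the Mediterranean orchid *Limodorum abortivum*, as 19 genes among 1159 listed plant genes. The members were the genes of a readable stretch of the study's plant gene list whose UniProt description holds the word transporter, permease, channel, carrier or aquaporin. Descriptions that place a protein in chloroplasts or mitochondria, or that name a kinase, a receptor-like protein, a transcription factor or a ubiquitin enzyme, were left out, which removed 4 genes. The word transporter was found in 15 members, permease in 2 and channel in 2, while carrier and aquaporin were found in 0. The count files hold 100005 assembled genes, so the members are a sample of the root's transporters and not the whole set. In the list the taxon was Dendrobium catenatum for 9 members, Phalaenopsis equestris for 6 and Apostasia shenzhenica for 1, all orchids. It was not an orchid for MSTRG.474 (Helianthus annuus), MSTRG.2086 (Brachypodium distachyon) and MSTRG.2412 (Prunus), and whether their reads come from the orchid was not tested.

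Root segments were collected in nature at a single site, and their mycorrhizal state was read from hand-made sections. The libraries LM3, LM4 and LM6 come from mycorrhizal roots, and the libraries LS2, LS3 and LS6 from non-mycorrhizal roots. Both groups are wild plants of 1 species without any treatment, and segments came from different individuals, without a statement of how many entered a library. The p-values of the fits set the difference between LM and LS against the spread between these libraries. LM roots are also thicker and darker than LS roots, and colonization cannot be told apart from the other differences between such roots.

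Reads counted over genes, fungal ones included, were 5364549 to 6019195 in LM libraries and 4748078 to 5809054 in LS libraries. In the study's read summary LM6 had the fewest fungal reads of the LM libraries. Its number lay above that of every LS library, but nearer to the LS libraries than to LM3 and LM4. The study also described LM6 as the more distant sample in its principal component analysis. Of the reads that fell on a gene, those that could not be given to a single gene made up 10.8% to 11.7% in LM and 19.5% to 29.3% in LS, so the groups did not overlap, and the part of this difference in the values below was not tested. The root label was checked with 4 genes for chlorophyll a-b binding and photosystem II proteins. They summed to 0.642 to 1.01 CPM (counts scaled by plant-read totals and TMM normalization factors) in LM libraries and 7.62 to 21.4 CPM in LS libraries. For 3 of the 4 genes every LM value lay below every LS value, against 9.66% of all listed plant genes. DESeq2 called 2 of the 4, both lower in LM, against 7.39% of the plant genes to which it gave an adjusted p. These were MSTRG.445 (adjusted p 0.00821) and MSTRG.2502 (0.0439). In edgeR's quasi-likelihood test only MSTRG.445 passed the filter on low counts, and its adjusted p was 0.107. MSTRG.13, the chlorophyll a-b binding gene, had 0, 0 and 1 reads in LM libraries, against 69, 0 and 1 in LS libraries. It gave 14.9 of the 21.4 CPM in LS2, so the top of the LS range rests mostly on 1 gene in 1 library. In the study's list the taxon was Phaseoleae for MSTRG.13, Phoenix dactylifera for MSTRG.303, Nicotiana for MSTRG.445 and the orchid Cypripedium formosanum for MSTRG.2502. Whether the reads of these 4 genes come from the orchid was not tested. Whether these genes mark green tissue in the segments, and the part of green tissue in the results, were not tested. The listed genes name no marker of a root cell type and no fungal gene.

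In roots, solutes cross membranes through carriers, pumps and channels, each family with its own cargo. In orchid mycorrhiza the fungus forms coils inside root cells, and a membrane of the plant surrounds each coil. Nutrients that cross this membrane may do so through plant transport proteins. Proton-coupled amino acid carriers and ammonium transporters are the families most often discussed for nitrogen, while metal carriers, anion channels and ABC transporters also serve the vacuole and the cell surface.

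None of the members passed the test between LM and LS roots, under the filter on low counts or without it. By edgeR's quasi-likelihood test with Benjamini-Hochberg adjustment, 0 of the 11 members that passed the filter on low counts had an adjusted p under 0.05, against 0% of the 719 tested plant genes. At an unadjusted p under 0.05 there was 1 member, a vacuolar iron transporter homolog, against 15.7% of tested plant genes. DESeq2 called 0 members and 7.39% of the plant genes to which it gave an adjusted p. At an unadjusted p under 0.05 it had 1 member, against 16.2% of the plant genes to which it gave a p. It gave no adjusted p to MSTRG.463, MSTRG.474, MSTRG.1224, MSTRG.1543 and MSTRG.1738, and MSTRG.1543 and MSTRG.1738 had no unadjusted p either. The likelihood ratio test called 4.59% of the tested plant genes and fitting every gene of the count files at once called 3.09% of them, in each case with 0 members. Counts here measure RNA in whole segments, where fewer cells of a type and less RNA per cell cannot be told apart.

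The tested members were spread on both sides of no difference. Of 11, 7 were higher in LM and 4 lower, which turned to 5 and 6 when all genes in the files were scaled together, a setting that moved the median of the listed plant genes to -0.26 on the log2 scale from -0.01. The median log2 fold change was 0.11 for the members and -0.01 for all tested plant genes, of which 48.7% were higher in LM. For 7 of 11 members (63.6%) the fold change was smaller than its standard error, against 44.5% of tested plant genes. Counts summed over all members made up 0.440, 0.576 and 0.757% of the reads on listed genes in LM3, LM4 and LM6, against 0.274, 0.742 and 0.575% in LS2, LS3 and LS6, so that the groups overlapped.

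**Figure D1:**
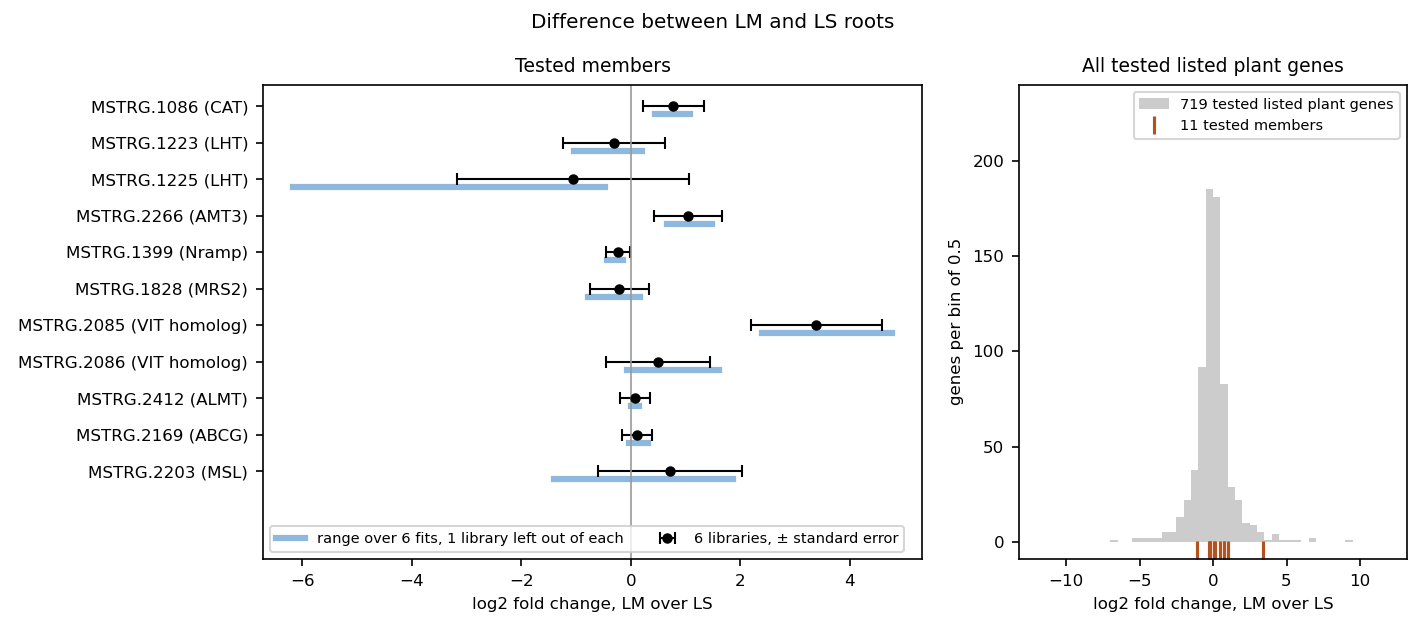
Left, log2 fold change of LM over LS for each tested member with its standard error (black) and the range when each library in turn was left out (blue). Right, the number of tested plant genes in bins of log2 fold change (grey), with the 11 members as orange ticks. The members lie between -1.06 and 3.39, and MSTRG.2085 is the one farthest from 0.

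Libraries of the groups stood apart, without overlap, for 1 of the 11 tested members, against 24.5% of tested plant genes. Among all 19 members this held for 5, against 21.1% of the listed plant genes: MSTRG.1122, MSTRG.1123 and MSTRG.2085 were higher in every LM library (3 of 19, against 11.4%), and MSTRG.1224 and MSTRG.1543 lower (2 of 19, against 9.66%). These shares are near those of the list as a whole.

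**Figure D2:**
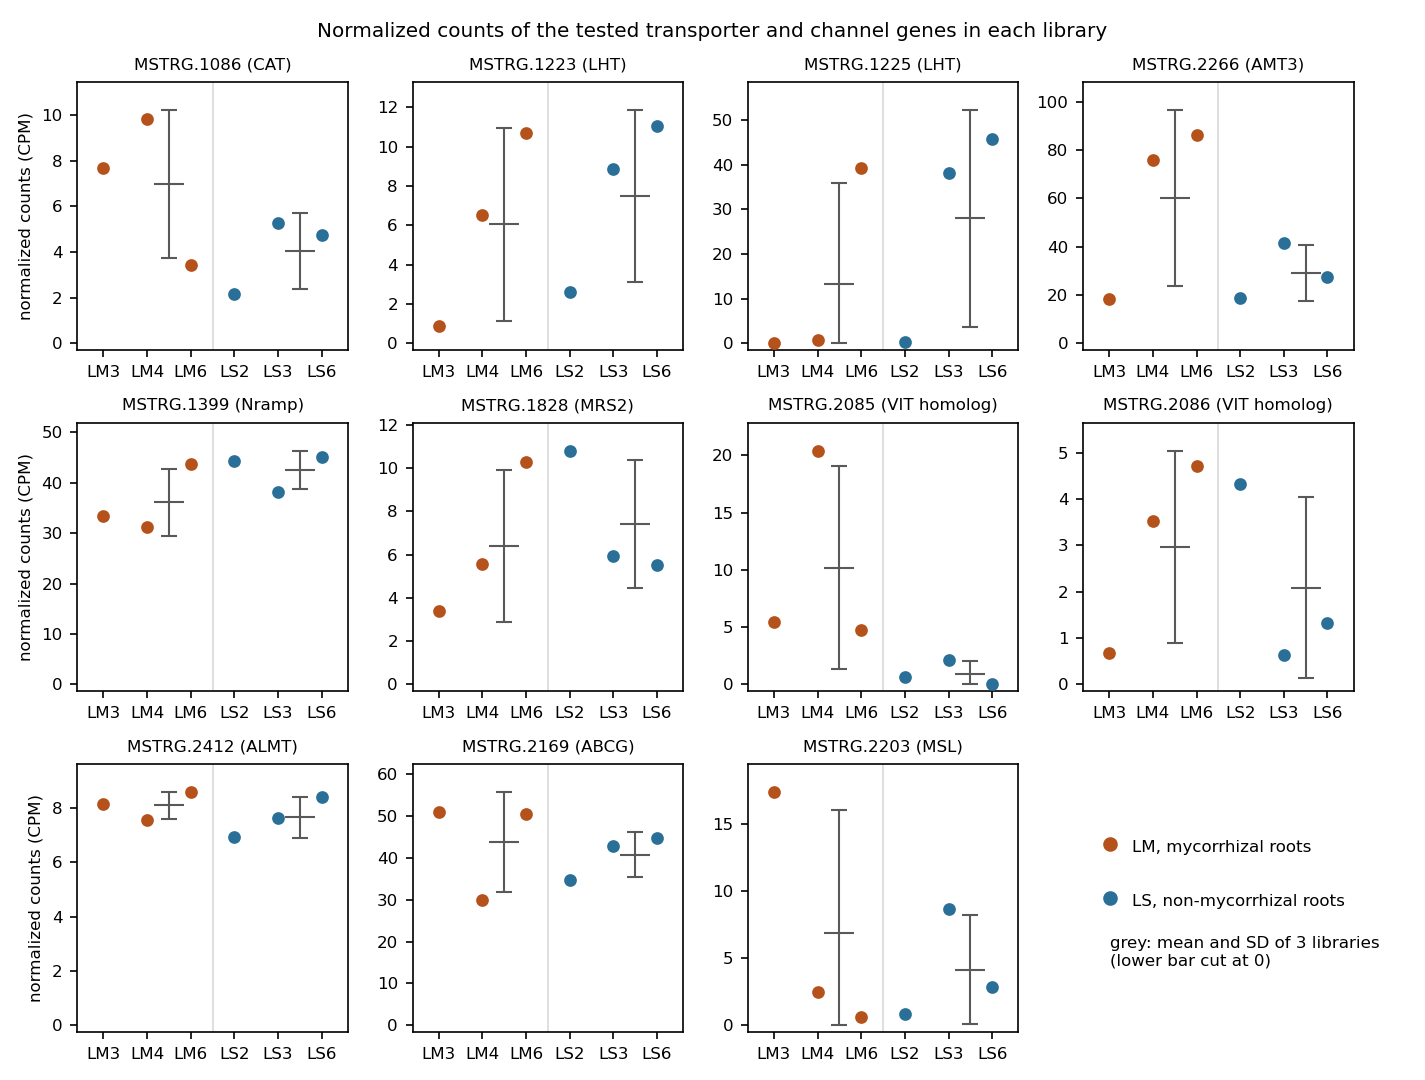
Normalized counts (CPM) of the 11 tested members in each library, LM in orange and LS in blue, with the mean and SD of 3 libraries in grey. Only in the panel of MSTRG.2085 do all LM points lie above all LS points.

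The amino acid carriers were the largest family, with 7 members, of which 3 were tested. MSTRG.1086 is annotated as cationic amino acid transporter 5 or vacuolar transporter 8, permeases that in *Arabidopsis* move basic and other amino acids. It had 7.69, 9.83 and 3.42 CPM in LM3, LM4 and LM6, against 2.16, 5.29 and 4.73 CPM in LS2, LS3 and LS6. LM3 and LM4 were the highest libraries, while LM6 lay below 2 LS libraries. The log2 fold change was 0.78 (SE 0.56), with an adjusted p of 0.503 in edgeR (0.343 to 0.801 over the alternatives), and it ran from 0.45 to 1.08 when each library was left out.

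MSTRG.1122 and MSTRG.1123, annotated as amino acid permease 4 or 2, were assembled from the same transcript and share a Trinity gene, so their reads may have been split. Amino acid permeases are proton-coupled importers of neutral and acidic amino acids. In LM3, LM4 and LM6 there were 7, 5 and 5 reads of MSTRG.1122, against 2, 4 and 2 in LS2, LS3 and LS6. For MSTRG.1123 the reads numbered 9, 8 and 6 in LM, against 4, 4 and 2 in LS. Each was higher in every LM library, and each failed the filter on low counts in the edgeR fit. DESeq2, which was run without that filter, gave adjusted p-values of 0.544 for MSTRG.1122 and 0.409 for MSTRG.1123. The scaled ratio of LM over LS was 2.14 for MSTRG.1122 (95% exact interval of counting error 0.876 to 5.73) and 2.32 for MSTRG.1123 (1.06 to 5.45).

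When the counts of both genes were added, the amino acid permease locus passed the filter. It had 3.61, 3.29 and 2.36 CPM in LM and 1.29, 1.69 and 1.05 CPM in LS. Every LM library lay above every LS library, as for 25.1% of the 650 loci tested in this way. MSTRG.1122 and MSTRG.1123 together had a log2 fold change of 1.18 (SE 0.43), which did not pass, with an adjusted p of 0.257 in edgeR's quasi-likelihood test. Unadjusted p-values under 0.05 were found at 2 of the 10 tested loci with members, against 16.2% of all loci. MSTRG.1123 took 57.4% ± 3.65 of the reads of the locus in LM and 55.6% ± 9.62 in LS (SD, n = 3 each), and these shares overlapped (exact permutation test, two-sided, p = 0.8, adjusted over 9 shares 0.8, where 3 libraries against 3 cannot go below 0.1).

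The remaining amino acid members are lysine histidine transporter-like genes, of the family of LHT1, a root importer of amino acids in *Arabidopsis*. MSTRG.463 had few reads, 3, 1 and 1 in LM against 0, 4 and 4 in LS. MSTRG.1223, MSTRG.1224 and MSTRG.1225 share a Trinity gene. MSTRG.1223 had 0.905, 6.55 and 10.7 CPM in LM3, LM4 and LM6, against 2.59, 8.89 and 11.03 CPM in LS2, LS3 and LS6. The groups overlapped, and the log2 fold change was -0.31 (SE 0.93) with an adjusted p of 0.891 in edgeR and a range of -1.05 to 0.20 over the fits that left out 1 library. The reads of MSTRG.1224 were 2, 1 and 1 in LM, against 3, 4 and 5 in LS, lower in every LM library, with a scaled ratio of 0.336 (0.0790 to 1.11).

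MSTRG.1225 was split between libraries within each group. Reads numbered 0, 3 and 184 in LM3, LM4 and LM6, against 1, 180 and 174 in LS2, LS3 and LS6, or 0, 0.756 and 39.4 CPM in LM against 0.216, 38.1 and 45.7 CPM in LS. LM6, LS3 and LS6 held nearly all of its reads, and the lowest of these was 50.4 times the highest of the other 3 libraries. The split cut across the groups, and the log2 fold change of -1.06 (SE 2.12) had an adjusted p of 0.824 in edgeR. Without LM6 the fold change was -6.17, and without any other single library it lay between -1.64 and -0.48. Of the 780 listed plant genes with at least 50 counts, MSTRG.1225 was the only one (0.128%) in which each of LM6, LS3 and LS6 was at least 10 times each other library, a pattern chosen after its values were seen.

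The split of reads within the lysine histidine transporter-like locus followed the same libraries. All 3 genes of the locus together had 6, 30 and 235 reads in LM3, LM4 and LM6, against 16, 226 and 221 reads in LS2, LS3 and LS6. MSTRG.1225 held 0% of these in LM3 (0 of 6, which allows up to 50%), 10.0% in LM4 (Clopper-Pearson 95% interval 2.11 to 26.5%) and 78.3% in LM6 (72.5 to 83.4%). It held 6.25% in LS2 (0.158 to 30.2%), 79.6% in LS3 (73.8 to 84.7%) and 78.7% in LS6 (72.7 to 83.9%). Within LM and within LS the observed share was thus 78.3% or more in some libraries and 10.0% or less in others, the low ones resting on 6 to 30 reads of the locus, and the groups were not separated (exact permutation test, two-sided, p = 0.5, adjusted 0.75). Summed over the 3 genes MSTRG.1223, MSTRG.1224 and MSTRG.1225, the log2 fold change was -0.88 (SE 1.40), with an adjusted p of 0.770 in edgeR.

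**Figure D3:**
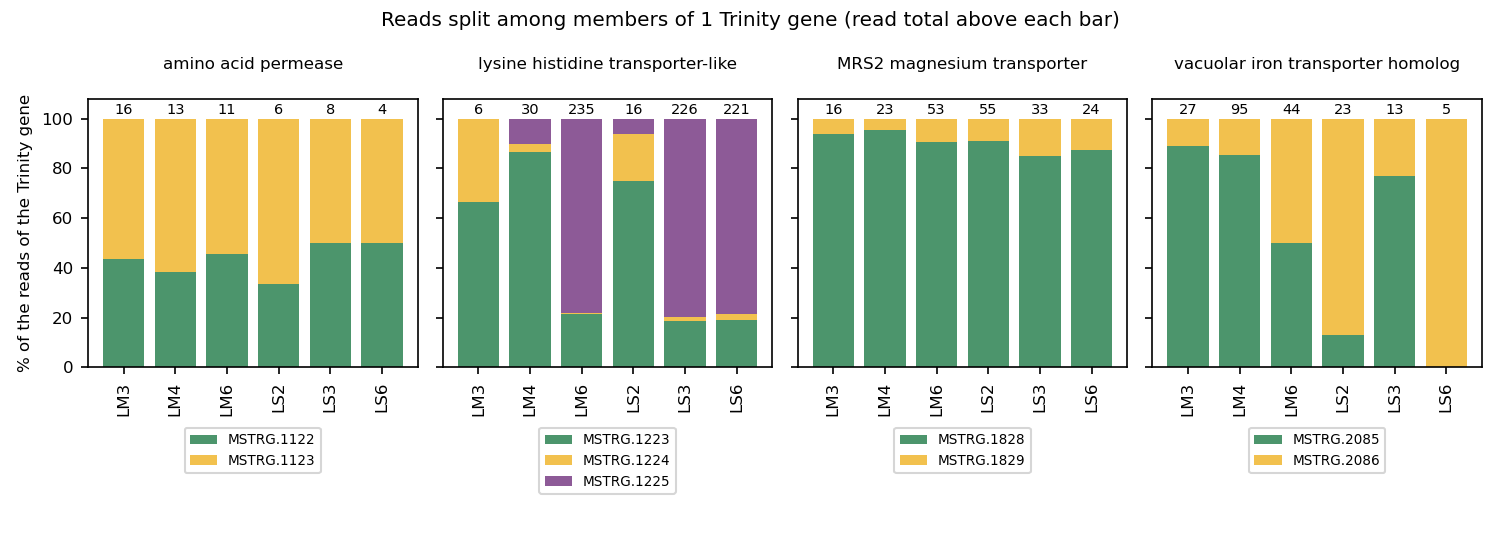
Share of the reads of a Trinity gene (%) that fell on each of its members in each library, with the number of reads above each bar. In the lysine histidine transporter-like panel MSTRG.1225 takes 78.3% to 79.6% of the reads in LM6, LS3 and LS6 and 0 to 10.0% in the other libraries.

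MSTRG.2266, annotated as ammonium transporter 3 member 1 or 3, was the single ammonium transporter among the members. Proteins of this name were described in rice and belong to the family that carries ammonium across plant membranes. Reads of MSTRG.2266 numbered 82, 301 and 404 in LM3, LM4 and LM6, against 87, 196 and 104 in LS2, LS3 and LS6. As normalized counts these were 18.6, 75.8 and 86.5 CPM in LM (60.3 ± 36.5 CPM, SD, n = 3) and 18.8, 41.5 and 27.3 CPM in LS (29.2 ± 11.5 CPM, SD, n = 3). LM4 and LM6 exceeded every LS library, while LM3 lay beside LS2 at the low end.

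For MSTRG.2266 the log2 fold change was 1.04 (SE 0.62), with an adjusted p of 0.436 in edgeR's quasi-likelihood test (0.315 to 0.691 over the alternatives). Without LM3 it was 1.47 with no overlap between the groups and an adjusted p of 0.315 in edgeR, and without LM6 it was 0.65. LM3 thus decided whether the groups overlapped.

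Among the 5 metal carriers were the vacuolar iron transporter homologs MSTRG.2085 and MSTRG.2086, which share a Trinity gene. Proteins of this family move iron, and in some cases other metals, into the vacuole. Reads of MSTRG.2085 numbered 24, 81 and 22 in LM3, LM4 and LM6, against 3, 10 and 0 in LS2, LS3 and LS6. These were 5.43, 20.4 and 4.71 CPM in LM (10.2 ± 8.86 CPM, SD, n = 3) and 0.648, 2.12 and 0 CPM in LS (0.922 ± 1.08 CPM, SD, n = 3). Every LM library exceeded every LS library, with LM4 far above the other LM libraries.

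MSTRG.2085 had a log2 fold change of 3.39 (SE 1.19), with an adjusted p of 0.256 in edgeR's quasi-likelihood test, and the scaled ratio was 9.84 (95% exact interval of counting error 5.55 to 19). The adjusted p was 0.0506 in DESeq2 and ranged from 0.0506 to 0.582 over the alternatives, so it passed under none of them. The groups stayed apart when each library was left out, with fold changes from 2.39 (without LM4) to 4.77 (without LS3) on the log2 scale. Without LM4 and without LS2, where the fold change was 3.17, the unadjusted p was no longer under 0.05.

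MSTRG.2086, annotated as homolog 3 or 2, had 0.679, 3.53 and 4.71 CPM in LM, against 4.32, 0.635 and 1.31 CPM in LS. The highest LS library was LS2 and the groups overlapped. The log2 fold change of MSTRG.2086 was 0.50 (SE 0.94), with an adjusted p of 0.811 in edgeR, and it ran from -0.08 (without LM6) to 1.60 (without LS2).

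MSTRG.2085 took 88.9, 85.3 and 50% of the reads of its locus in LM3, LM4 and LM6, against 13.0 and 76.9% in LS2 and LS3. In LS6 it took 0% (0 of 5, which allows up to 60%). The mean share was 74.7% ± 21.5 in LM and 30.0% ± 41.2 in LS (SD, n = 3 each), and LS3 lay within the LM range (exact permutation test, two-sided, p = 0.2, adjusted 0.45). Added together, MSTRG.2085 and MSTRG.2086 had 6.10, 24.04 and 9.45 CPM in LM and 4.94, 2.74 and 1.32 CPM in LS, again without overlap. Their summed log2 fold change was 2.12 (SE 0.73), with an adjusted p of 0.235 in edgeR.

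For the other metal carriers the LM and LS libraries overlapped. MSTRG.1399 is annotated as Nramp6 or Nramp2, of a family that carries manganese, iron and other divalent metals. It had 31.2 to 43.7 CPM in LM and 38.1 to 45.2 CPM in LS, and a log2 fold change of -0.23 (SE 0.22, adjusted p 0.617 in edgeR). MSTRG.1828 and MSTRG.1829, annotated as MRS2-10 or MRS2-1, belong to a family of magnesium transporters and share a Trinity gene. MSTRG.1828 had 3.39 to 10.3 CPM in LM and 5.52 to 10.8 CPM in LS, with a log2 fold change of -0.21 (SE 0.54, adjusted p 0.869 in edgeR, -0.78 to 0.16 when each library was left out). Reads of MSTRG.1829 numbered 1, 1 and 5 in LM, against 5, 5 and 3 in LS. MSTRG.1828 held 93.3% ± 2.57 of the locus in LM and 87.8% ± 3.04 in LS (SD, n = 3 each), with p = 0.2 in the exact permutation test (two-sided, adjusted 0.45).

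Of the organic anion channels, both named for the aluminum-activated malate transporters, 1 was even between libraries and 1 was not. Members of this family are anion channels of the plasma membrane and the vacuole. MSTRG.2412, annotated as transporter 9 or 3, had 8.15, 7.56 and 8.56 CPM in LM and 6.91, 7.62 and 8.41 CPM in LS. Its log2 fold change was 0.08 (SE 0.28), with an adjusted p of 0.902 in edgeR, and it turned to -0.16 when all genes in the files were scaled together. MSTRG.1738, annotated as transporter 10 or 2, had 2, 98 and 0 reads in LM3, LM4 and LM6, against 0, 1 and 0 in LS2, LS3 and LS6. LM4 held 97.4% of its normalized counts, and it failed the filter on low counts.

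The ABC transporters of the G family export lipids, hormones and defence compounds across the plasma membrane in plants. MSTRG.2169, annotated as member 3 or 11, had 50.9, 30.0 and 50.5 CPM in LM and 34.6, 42.8 and 44.7 CPM in LS. LM3 and LM6 were the highest libraries and LM4 the lowest. For MSTRG.2169 the log2 fold change was 0.11 (SE 0.27, adjusted p 0.869 in edgeR), ran from -0.04 to 0.32 when each library was left out, and was -0.14 when all genes were scaled together. MSTRG.474, annotated as ABC transporter G family member 38 or 42, had 4, 3 and 1 reads in LM, against 3, 5 and 1 in LS.

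Mechanosensitive channels open when a membrane is stretched. MSTRG.2203, annotated as mechanosensitive ion channel protein 9 or 10, which in *Arabidopsis* act in root cells, had 17.4, 2.52 and 0.642 CPM in LM3, LM4 and LM6, against 0.864, 8.68 and 2.89 CPM in LS2, LS3 and LS6. LM3 was the highest library, and the groups overlapped. The log2 fold change was 0.72 (SE 1.31, adjusted p 0.810 in edgeR) and ran from -1.40 (without LM3) to 1.87 (without LS3). MSTRG.1543, a Piezo-type channel, had 0, 2 and 3 reads in LM, against 6, 317 and 4 in LS, lower in every LM library, and LS3 held 95.1% of its normalized counts.

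A dominance of 1 library was rare on the whole list. Of 780 listed plant genes with at least 50 counts, 14 (1.79%) had at least 90% of their normalized counts in 1 library, and MSTRG.1543 and MSTRG.1738 were 2 of them, out of 13 members with that many counts. This threshold was also chosen after the values were seen.

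**Figure D4:**
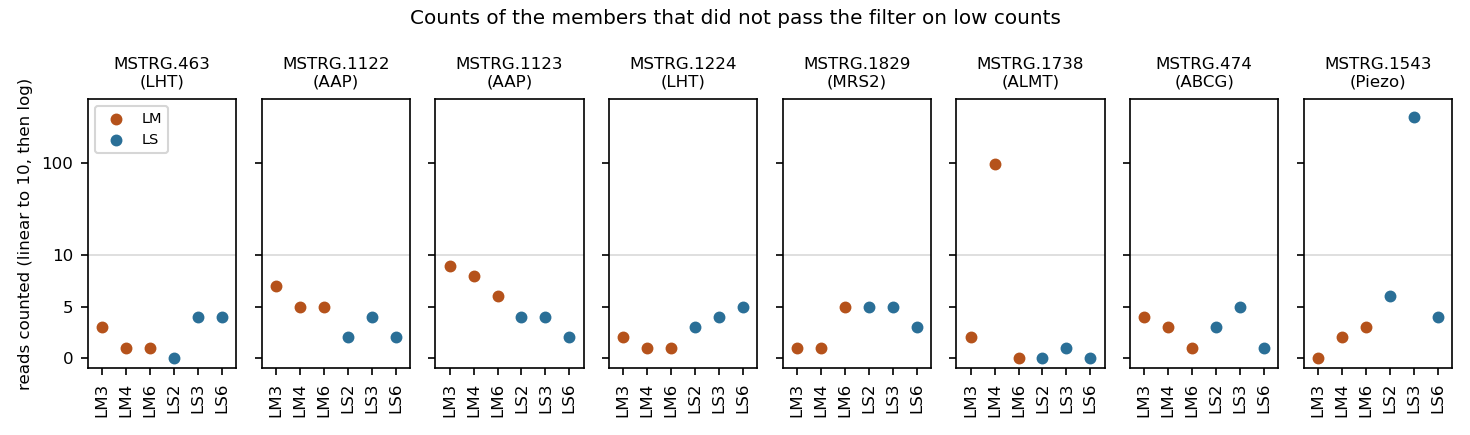
Reads counted in each library for the 8 members that failed the filter on low counts, LM in orange and LS in blue, on an axis that is linear to 10 and logarithmic above. MSTRG.1738 and MSTRG.1543 exceed 10 reads in 1 library each, LM4 with 98 and LS3 with 317, and the other members stay below 10.

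Carriers and channels whose description lacks the words of the rule gave 9 more genes, of which 6 were tested. By edgeR 0 were called, and 1 higher and 2 lower had an unadjusted p under 0.05, against 8.34% and 7.37% of tested plant genes, while DESeq2 called 2, against 7.39% of the plant genes to which it gave an adjusted p. MSTRG.98 is annotated as DETOXIFICATION 18 or 19, of the MATE family that exports organic compounds by cation exchange. It had 15.6, 33.5 and 13.3 CPM in LM and 6.05, 3.18 and 1.58 CPM in LS, higher in every LM library. MSTRG.98 had a log2 fold change of 2.51 (SE 0.64), with an adjusted p of 0.186 in edgeR and 0.0125 in DESeq2 (0.0125 to 0.398 over the alternatives).

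MSTRG.1148 and MSTRG.1149 share a Trinity gene and are annotated as ALUMINUM SENSITIVE 3, part of an ABC transporter needed for aluminum tolerance in *Arabidopsis* and, as STAR2, in rice. MSTRG.1148 had 5.43, 2.52 and 4.92 CPM in LM and 21.0, 8.26 and 17.3 CPM in LS, with a log2 fold change of -1.84 (SE 0.50) and an adjusted p of 0.188 in edgeR and 0.0296 in DESeq2 (0.0296 to 0.403 over the alternatives). MSTRG.1149 had 180, 87.4 and 96.5 CPM in LM and 507, 188 and 239 CPM in LS, with a log2 fold change of -1.36 (SE 0.50), an adjusted p of 0.270 in edgeR and 0.146 in DESeq2. For both genes every LM value lay below every LS value. Carriers and pores of organelle envelopes numbered 4, all tested, with 0 called in edgeR and in DESeq2, 2 higher and 2 lower in LM, and log2 fold changes from -0.60 to 2.06. The highest, that of MSTRG.2233 (named after its values were seen), was 1.41 without LM4 and 3.40 without LS3.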

How the data were processed

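Counts came from 6 polyA-selected paired-end RNA-seq libraries, 3 per group, taken from the sample labels. The authors trimmed reads with bbduk, assembled them with Trinity, aligned them with HISAT2 2.0.4 and merged transcripts with StringTie 1.3.5. The deposited files hold raw HTSeq counts per assembled gene, not normalized, plus 5 summary lines (68.3% to 72.8% of a file) that were left out. The sources used here do not state the strand setting. Sequences were not analysed here.

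Members, gene lists and tests were chosen with earlier results of these data known. The 1159 listed plant genes were fitted in R 4.3.3 with edgeR 4.0.16: filterByExpr (minimum count 10, total 15), TMM, plant-read totals from the study as library sizes, quasi-likelihood test, Benjamini-Hochberg adjustment, threshold 0.05. Normalized counts are CPM after TMM. Fold changes are LM over LS. Their standard errors were derived from edgeR's quasi-likelihood F statistic and the fold change before shrinkage, and were not estimated directly by the fit. Shares within a Trinity gene were compared by exact permutation tests. All members were named, with values for those in the amino acid and ammonium groups or with an unadjusted p under 0.05, a DESeq2 call or groups apart. Where a count was 0, up to 3 reads were allowed. Intervals cover counting error only. Scripts were tested on simulated data. Alternatives used DESeq2 1.42.0, limma 3.58.1, other scalings, no filter, all genes, summed loci, a replicate block and leaving out each library.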

Additional observations from a re-analysis of the deposited data

How the results depend on the processing

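Over 15 alternative settings, 149 of 160 fold changes of tested members kept their direction, 0 came to pass the test, and 11 turned. MSTRG.1086, MSTRG.1225, MSTRG.1399, MSTRG.2085 and MSTRG.2266 kept their direction under every setting run. With all genes in the files in 1 fit, MSTRG.2169 was at -0.14 and MSTRG.2412 at -0.16. Leaving out each library gave -1.05 to 0.20 for MSTRG.1223, -0.78 to 0.16 for MSTRG.1828, -0.077 to 1.60 for MSTRG.2086, -0.038 to 0.32 for MSTRG.2169 and -1.40 to 1.87 for MSTRG.2203. Listed plant genes called were 74 with DESeq2 and 33 with the likelihood ratio test, and genes of any kind called were 688 of 22268 when all genes in the files were fitted, with 0 members in each. Members with the groups apart were 5 without the filter on low counts, against 21.1% of listed genes with the scaling of the main fit. They were 2 loci when counts were summed per Trinity gene, against 25.1% of loci. When each library was left out they were 1 to 4. Fewer libraries separate more easily, and the share of all genes apart in those fits was not computed. Members at an unadjusted p under 0.05 were 4 without the filter (13.5% of listed genes), 2 loci when summed (16.2% of loci) and 0 with limma-voom (14.9% of tested genes). When each library was left out they were 0 to 2, beside 76 to 129 of the 719 tested genes. The cause was not tested. With the replicate number as a replicate block, 0 listed genes were called, 101 had an unadjusted p under 0.05, and MSTRG.2203 was at -0.24. Libraries of the same replicate number (LM3 with LS2, LM4 with LS3 and LM6 with LS6) correlated in their deviations at -0.07, 0.15 and 0.13. The other pairs of an LM and an LS library ran from -0.22 to 0.11. These values do not settle whether the numbers pair the libraries. The sample labels state no pairing, and the main fit used none.

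With 3 libraries per group, 8 members failed the filter on low counts, 2 of them (MSTRG.1543 and MSTRG.1738) with over 90% of their normalized counts in 1 library, and 9 members shared a Trinity gene with another member.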
